A study of Mus musculus with 8 samples.

Results

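The genes described here are the D cyclins Ccnd1, Ccnd2 and Ccnd3, the CDK inhibitors Cdkn1a, Cdkn1b, Cdkn2a, Cdkn2b, Cdkn2c and Cdkn2d, and the retinoblastoma gene Rb1. They are 10 of 43346 gene identifiers counted, were chosen by name for their place at the G1 to S step of the cell cycle, and were all found. RNA was sequenced from notochord-derived cells (NDCs) of Shh-cre;ROSA:YFP mice, in which Cre driven from the Shh gene switches on YFP in Shh-expressing cells and in all their descendants. There were 4 litters at embryonic day 12.5 (E12.5), labelled NDP10.2, NPD3, NPD4 and NPD9.2, and 4 litters at postnatal day 0 (P0), labelled NPD26, NPD27, NPD28 and NPD30. The embryos or pups of a litter were pooled into 1 sample. The E12.5 samples were whole notochords dissected under a microscope, without sorting, and frozen in TRIzol, whereas the P0 samples were nucleus pulposus (NP) cells shaken out of lumbar and thoracic discs, strained and sorted for YFP. Stage and method of isolation therefore cannot be told apart in any comparison below.

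A D cyclin binds the kinases CDK4 or CDK6, and the active complex phosphorylates the retinoblastoma protein, which then releases E2F transcription factors that switch on genes for DNA replication. The INK4 inhibitors, encoded by Cdkn2a, Cdkn2b, Cdkn2c and Cdkn2d, bind CDK4 and CDK6 directly, and the Cip/Kip inhibitors, encoded by Cdkn1a, Cdkn1b and Cdkn1c, act on complexes of cyclin and kinase, CDK2 included. D cyclins carry growth factor signals to the cell cycle, and the inhibitors are known for holding cells in G1 as tissues mature.

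Reads counted on genes numbered 4442775 to 7180221 per sample at E12.5 and 6371842 to 8904050 at P0. A count of 3, taken as the floor of detection, corresponded to 0.337 to 0.675 CPM, the unit in which counts are scaled to the size of the library, and this floor covers counting error only. Reads that fell on more than 1 gene and were not counted made up 10.6% to 17.5% of all reads at E12.5, most in NPD9.2 and NDP10.2, and 7.07% to 10.5% at P0. Marker genes of several other cell types moved with the stage, while the summed levels of endothelial, neural tube and B cell markers overlapped between stages. At E12.5 these sums were 61.1 to 119, 46.6 to 869 and 46.4 to 362 CPM. At P0 they were 20.3 to 98.9, 114 to 284 and 102 to 402 CPM, although 3 of the 4 B cell markers tested were called higher. Over 8 leukocyte markers the summed level was 53.7 to 107 CPM at E12.5 and 281 to 3367 CPM at P0, lowest in NPD30. Over 8 neutrophil markers it was 4.01 to 15.8 CPM at E12.5, where Elane was at 0 in every litter, and 764 to 6678 CPM at P0, highest in NPD28. The 3 primitive erythroid markers summed to 8120 to 32815 CPM at E12.5, highest in NPD9.2 and NDP10.2, and to 2.12 to 7.07 CPM at P0, and the 7 sclerotome markers summed to 159 to 225 CPM at E12.5 and 14.7 to 29.4 CPM at P0. Macrophage markers ranged from 48.8 to 98.6 summed CPM at E12.5 and from 55.3 to 4409 at P0, lowest in NPD30, and osteoblast markers from 29.4 to 84.1 and from 317 to 658, highest in NPD30. Skeletal muscle markers ranged from 92.7 to 445 summed CPM at E12.5 and from 1.77 to 12.3 at P0, and liver markers from 42.3 to 700.3 and from 0.47 to 1.73, both highest in NPD9.2 and NDP10.2 at E12.5. The early notochord gene Noto was near 0 at both stages. All 10 notochord markers summed to 2118 to 4790 CPM at E12.5 and 2097 to 7459 CPM at P0, highest in NPD30. Within that sum, markers moved in opposite directions. Mean Shh went from 841 to 5.94 CPM and Foxa1 from 144 to 30.5 CPM. Krt19 went from 107 to 356 CPM and Cd24a from 679 to 1708 CPM. The part of other cell types in the results below was not tested. A value given without a litter leaves out everything in which that litter differs, so it does not single out a cell type.

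Of the 10 genes, 5 passed an adjusted p under 0.05 in edgeR's quasi-likelihood F-test, 3 of them higher at P0 and 2 lower. Of all 15467 genes tested, 27.9% passed, 16.0% higher and 12.0% lower at P0. Ccnd1 and Ccnd2 fell, and Cdkn2b, Cdkn2c and Rb1 rose, whereas Ccnd3, Cdkn1a, Cdkn1b and Cdkn2d did not pass and Cdkn2a lay at the floor and was not tested. Cdkn2b passed the filter on low counts through its P0 litters, with 4 of them but only 1 E12.5 litter above the cutoff of 1.54 CPM, so the count of 5 is a description. The calls for Ccnd1, Ccnd2 and Cdkn2c held when any 1 litter was left out. The calls for Cdkn2b and Rb1 did not, and 3 genes remained called without NPD3, without NPD9.2 or without NPD27. Because these are bulk samples, fewer cells of a type and less RNA per cell cannot be told apart. Throughout, fold changes are P0 over E12.5, means are given ± SD over 4 litters, and the values of single litters follow the order in which the litters are listed above.

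**Figure D1:**
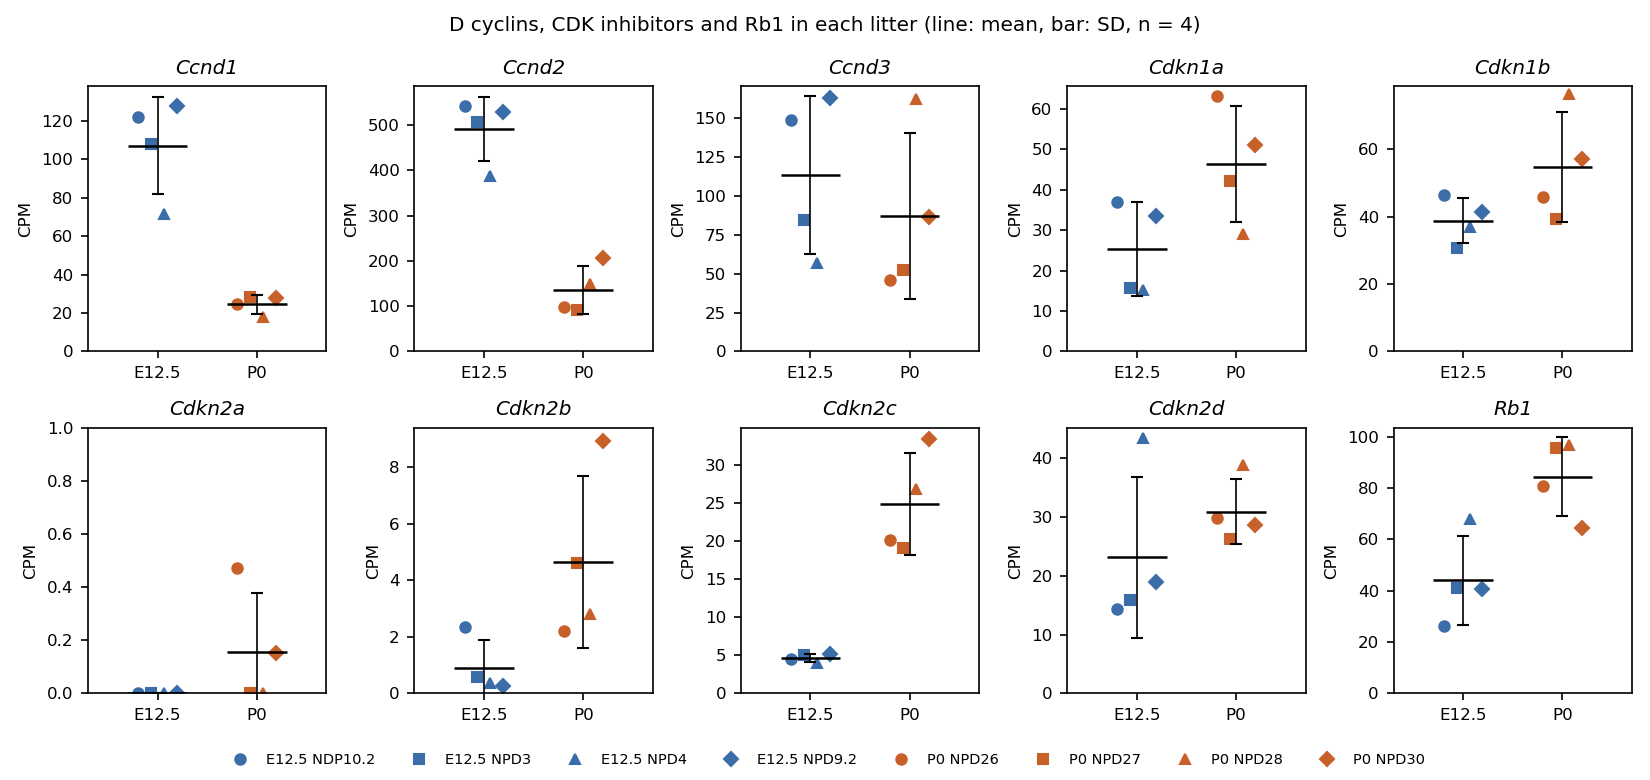
Level of each of the 10 genes in CPM (vertical axes, each starting at 0) in the 4 E12.5 litters (blue) and the 4 P0 litters (orange), with 1 symbol per litter, a line at the mean and a bar of 1 SD. The P0 litters of Ccnd1 and Ccnd2 all lie below, and those of Cdkn2c all above, the E12.5 litters, and the other genes overlap between stages.

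Ccnd1, the D cyclin best known as a target of growth factor and Wnt signals, lies at chr7:144929931-144939925 on the minus strand (Gencode M21, GRCm38, as for all positions of genes here). It measured 122, 108, 71.3 and 128 CPM at E12.5 and 24.5, 28.6, 17.8 and 27.6 CPM at P0. The highest P0 litter was well below the lowest E12.5 litter, NPD4, and the groups did not overlap, as was the case for 29.9% of all genes tested, 14.4% being lower at P0. Mean abundance went from 107 ± 25.3 CPM to 24.6 ± 4.87 CPM, a 4.35-fold decrease (log2 fold change -2.12, SE 0.26, adjusted p = 0.0004 with edgeR). Only 5.44% of all genes tested had a lower log2 fold change. With 1 litter left out, the log2 fold change ranged from -2.28 to -1.99. Ccnd1 shares 1100 exon bases with LTO1 on the opposite strand, and the strand setting of the counting is not given in the sources used here. Reads on the shared bases may therefore have been left uncounted, as falling on more than 1 gene.

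Ccnd2, a D cyclin with wide expression in embryonic progenitors, lies at chr6:127125162-127152193 on the minus strand. Its counts gave 543, 507, 387 and 528 CPM at E12.5 and 99.1, 91.0, 150 and 206 CPM at P0. As for Ccnd1, NPD4 was the lowest E12.5 litter and still above every P0 litter. The highest P0 litter was NPD30, the one with the fewest leukocyte and the most notochord marker transcripts. Mean abundance fell from 491 ± 71.0 CPM to 136 ± 53.1 CPM, 3.60-fold (log2 fold change -1.85, SE 0.31, edgeR adjusted p = 0.0016). Without NPD30 the log2 fold change was -2.15. Ccnd2 shares 740 exon bases with Gm43126 and 9330179D12Rik on the opposite strand.

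Ccnd3, the D cyclin prominent in blood cell lineages, lies at chr17:47505051-47599691 on the plus strand and shares 361 exon bases with Bysl. It stood at 149, 84.5, 56.9 and 163 CPM at E12.5 and 46.2, 52.3, 162 and 86.6 CPM at P0. The stages overlapped widely, with NPD9.2 and NDP10.2 high at E12.5 and NPD28 high at P0. The means of 113 ± 50.8 CPM and 86.9 ± 53.4 CPM did not differ beyond the spread between litters (log2 fold change -0.38, SE 0.45, edgeR adjusted p = 0.57). Its 2 highest E12.5 litters were those with the most primitive erythroid transcripts, 32815 summed CPM in NPD9.2 and 16124 in NDP10.2, and also those with the most skeletal muscle (445 and 336) and liver transcripts (700.3 and 576). Of the erythroid markers, Hbb-bh1 was lowest in NDP10.2, at 190 CPM against 306 to 473 CPM in the other E12.5 litters. The highest P0 litter for Ccnd3 was the one with the most neutrophil transcripts, 6678 summed CPM. With NDP10.2 and NPD9.2 left out, the log2 fold change turned to 0.26 (adjusted p = 0.78), and without NPD28 it was -0.87 (adjusted p = 0.14). Of these 2 fits, the sign changed only in the former.

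**Figure D2:**
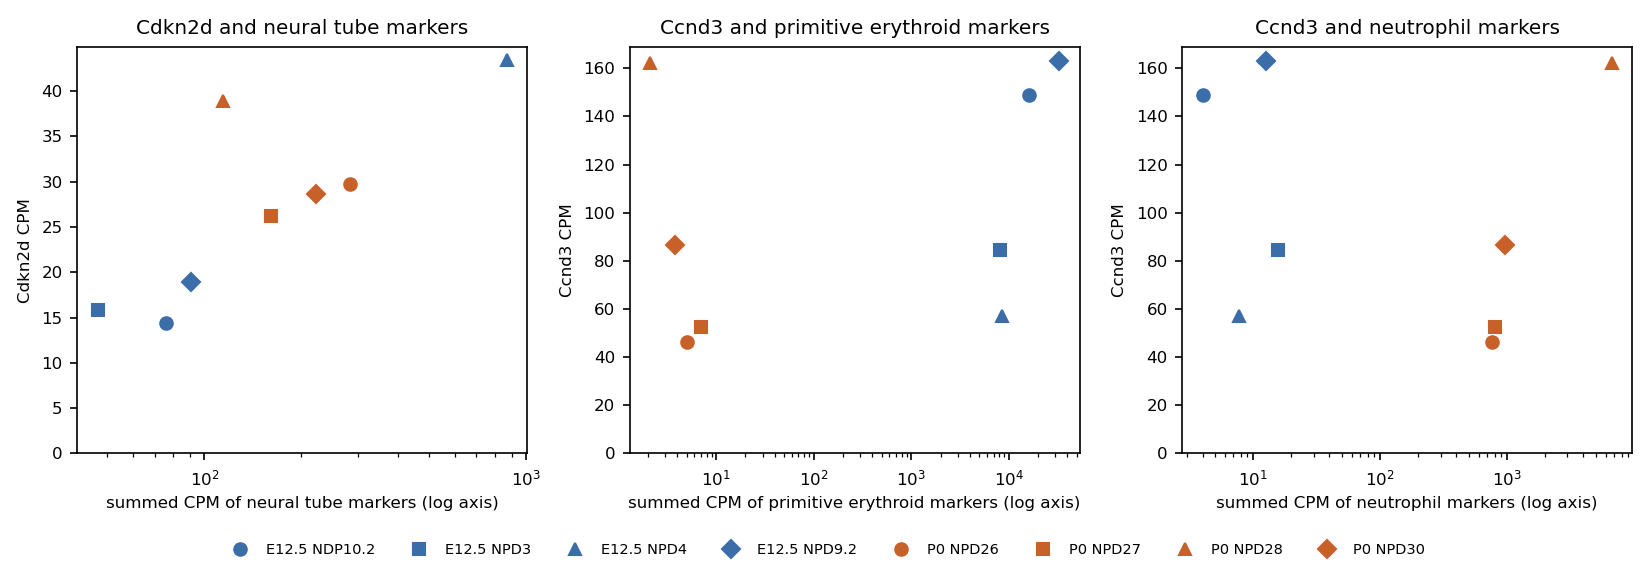
Level in CPM (vertical axes, from 0) of Cdkn2d (left) and Ccnd3 (middle and right) against the summed CPM of neural tube, primitive erythroid and neutrophil markers (horizontal log axes), with 1 symbol per litter, E12.5 in blue and P0 in orange. NPD4 is highest for both Cdkn2d, at 43.4 CPM, and neural tube markers, at 869 CPM, most of it from Tubb3 and Elavl3. Ccnd3 is high in NPD9.2 and NDP10.2, which lead in the sum of erythroid markers, and in NPD28, which leads in the sum of neutrophil markers.

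To compare the 3 D cyclins with each other, CPM was divided by exon length in kb. On that scale their summed level was 100.5, 86.4, 62.8 and 102 at E12.5 and 21.01, 21.7, 38.2 and 37.6 at P0. All P0 litters lay below all E12.5 litters, and the mean fell 2.97-fold, from 87.9 ± 18.1 to 29.6 ± 9.56 CPM per kb. Ccnd2 was the largest contributor in every litter but NPD28, with 60.1% ± 4.71 of the sum at E12.5 and 48.6% ± 7.28 at P0, and these shares overlapped between stages. The share of Ccnd1 was 25.8% ± 1.15 at E12.5 and 19.6% ± 8.31 at P0 and also overlapped. The share of Ccnd3 was 16.9%, 11.2%, 10.3% and 18.3% at E12.5 and 25.1%, 27.5%, 48.5% and 26.2% at P0. Every P0 litter thus exceeded every E12.5 litter in the share of Ccnd3, while the CPM of Ccnd3 overlapped, and the mean share at P0 without NPD28 was 26.3%. When the longest transcript was used as the length, the shares of Ccnd2 no longer overlapped, with means of 58.1% and 43.0%, and the mean share of Ccnd3 at P0 was 42.2%, close to that of Ccnd2.

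**Figure D3:**
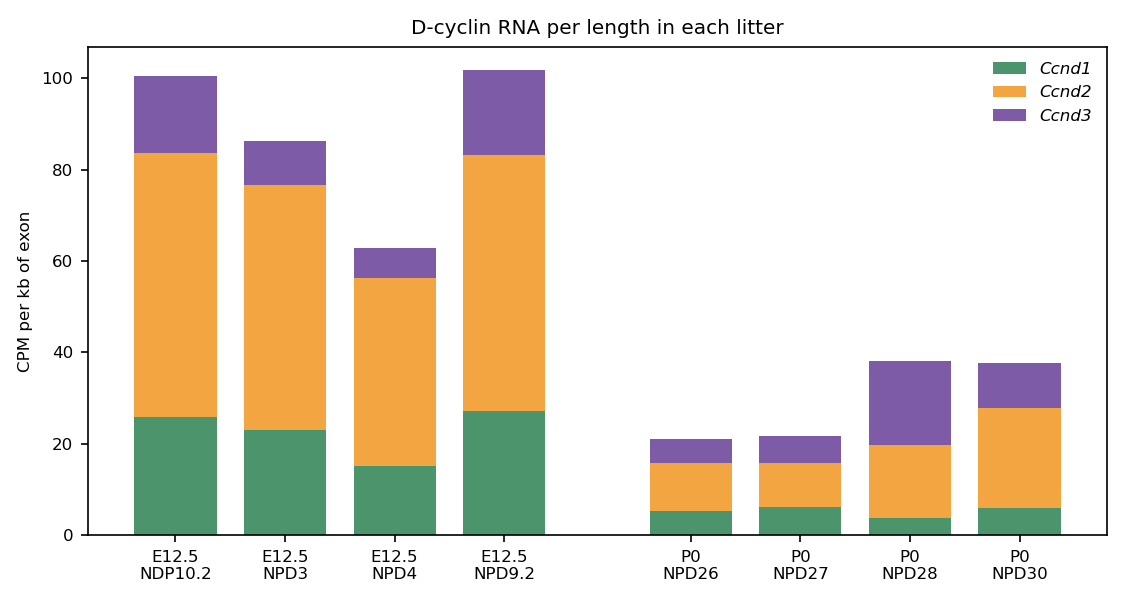
Stacked bars of the D-cyclin level in CPM per kb of exon (vertical axis, from 0) for each of the 8 litters, with Ccnd1 at the bottom, Ccnd2 in the middle and Ccnd3 on top. The bars sum to between 62.8 and 102 at E12.5 and to between 21.01 and 38.2 at P0, and Ccnd3 takes up 48.5% of the bar of NPD28.

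The kinases that the D cyclins activate did not all move. Cdk4 measured 392, 375, 452 and 394 CPM at E12.5 and 160, 156, 134 and 128 CPM at P0, with no overlap (log2 fold change -1.48, SE 0.21, edgeR adjusted p = 0.0008). The call for Cdk4 held without any 1 litter. Cdk6, its close relative, had means of 54.7 ± 10.9 CPM and 37.0 ± 12.3 CPM and did not pass (log2 fold change -0.56, SE 0.29, adjusted p = 0.17). Cdk2, the partner of cyclins E and A, was lower in the P0 litters (log2 fold change -0.74, SE 0.23, adjusted p = 0.035), a call lost on leaving out NPD3, NPD9.2, NPD26, NPD27 or NPD30, where the value was -0.79 to -0.66. Of the 9 kinases and later cyclins listed, Cdk4 and Cdk2 passed, both lower, and none passed higher. Over all genes tested, 27.9% passed, with 12.0% lower. The median log2 fold change of the list was -0.53, beside 0.04 over all genes tested. Cyclin genes of S phase and mitosis such as Ccna2 (log2 fold change 0.24, adjusted p = 0.54) and Ccnb1 (-0.39, adjusted p = 0.23) did not pass.

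Among the INK4 inhibitors, Cdkn2c rose most firmly. Cdkn2c encodes p18Ink4c, lies at chr4:109660876-109667189 on the minus strand and shares no exon bases with another gene. It measured 4.48, 5.07, 3.99 and 5.16 CPM at E12.5 and 20.1, 19.0, 26.8 and 33.4 CPM at P0. The E12.5 litters were close together and every P0 litter lay above them, NPD30 being highest. Mean abundance rose 5.31-fold, from 4.68 ± 0.55 to 24.8 ± 6.64 CPM (log2 fold change 2.41, SE 0.30, edgeR adjusted p = 0.0004), with a range of 2.20 to 2.53 when 1 litter was left out. Of all genes tested, 6.80% had a higher log2 fold change. Without NPD30, the P0 litter that was highest for Cdkn2c and for osteoblast markers (658 summed CPM, 317 to 497 in the others) and lowest in leukocyte markers, the value was 2.20 (adjusted p = 0.0005). NPD30 also had the highest sum of notochord markers at P0, 7459 CPM against 2097 to 4055 CPM in the others.

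Cdkn2b encodes p15Ink4b, an inhibitor known as a target of TGF-β signaling, at chr4:89306299-89311039 on the minus strand. Its raw counts were low, with 10, 3, 3 and 1 at E12.5 and 14, 32, 24 and 59 at P0. In CPM these were 2.36, 0.59, 0.36 and 0.25 at E12.5 and 2.20, 4.61, 2.83 and 8.95 at P0. The stages overlapped, since NDP10.2 exceeded NPD26, and the counts of the other E12.5 litters were at or below the floor of 3. The log2 fold change was 2.42 (SE 0.77, edgeR adjusted p = 0.037). Leaving out a litter gave 1.85 to 3.43, the highest without NDP10.2, and the call was lost without NPD3 (2.24), NPD4 (2.11), NPD9.2 (2.11), NPD27 (2.43) or NPD30 (1.85). NPD30 was the highest litter for Cdkn2b as for Cdkn2c. At P0 it had the lowest sum of leukocyte markers and the highest sums of both osteoblast and notochord markers.

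Cdkn2a, at chr4:89274471-89294653 on the minus strand, encodes p16Ink4a and, from another first exon and reading frame, p19Arf. It had 0 counts in every E12.5 litter and 3, 0, 0 and 1 counts in the P0 litters. All 8 litters were at or below the floor of 3 counts, so no fold change is given. Its annotated end lies 11645 bases from the annotated start of Cdkn2b, which was above that floor in every P0 litter. Gene counts do not separate the p16Ink4a transcript from the p19Arf transcript, and a level under the floor was not detectable at these depths.

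Cdkn2d encodes p19Ink4d at chr9:21288410-21291407 on the minus strand. It was at 14.4, 15.8, 43.4 and 18.9 CPM in the E12.5 litters and 29.7, 26.2, 38.9 and 28.6 CPM in the P0 litters. NPD4 was the highest of all 8 litters, and the other E12.5 litters lay below every P0 litter. The means of 23.1 ± 13.6 CPM and 30.9 ± 5.51 CPM did not differ beyond the spread between litters (log2 fold change 0.41, SE 0.36, edgeR adjusted p = 0.43). Without NPD4 the log2 fold change was 0.91 (adjusted p = 0.030). NPD4 also had 869 summed CPM over 6 neural tube markers, against 46.6 to 90.7 CPM in the other E12.5 litters, most of it from the neuronal genes Tubb3 (576 CPM) and Elavl3 (289 CPM). Pax6 of the same list was lowest in NPD4, at 1.57 CPM against 3.51 to 4.95 CPM in the other E12.5 litters. Nkx6-1 was at 0.24 CPM there and Olig2 at 0.12 CPM, while Nkx2-2, at 1.57 CPM, was the highest of the E12.5 litters. The level per length of the 4 INK4 genes together was 17.1 ± 8.20 CPM per kb at E12.5 and 32.3 ± 5.36 CPM per kb at P0, overlapping because of NPD4, and Cdkn2d was the largest contributor at both stages.

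Promoter windows, the 250 bases before a transcript start in RefSeq (GRCm38.p6), were matched for 7 of the 10 genes, with no entry for Ccnd1, Ccnd2 and Rb1. Windows of the 2 INK4 genes called higher at P0 and of Cdkn2a, which adjoins Cdkn2b and lay at the floor, are shown. These genes share a protein family and differ in level. The call for Cdkn2b was lost in 5 of the 8 fits with 1 litter left out. The window of the upstream Cdkn2c start lies wholly within annotated exon and is not shown. Each run is 5′ to 3′ on the minus strand of GRCm38, without bases annotated as exon, and capitals mark an E2F word (TTTGGCGC, TTTCCCGC or TTTCGCGC) or a GC box (GGGCGG), searched on both strands, with no overlap among the matches shown. The runs are Cdkn2b at chr4:89311040-89311282, the downstream start of Cdkn2c at chr4:109665373-109665609, the downstream start of Cdkn2a, which gives p16Ink4a, at chr4:89282193-89282442, and its upstream start, which gives p19Arf, at chr4:89294654-89294869.
Cdkn2b: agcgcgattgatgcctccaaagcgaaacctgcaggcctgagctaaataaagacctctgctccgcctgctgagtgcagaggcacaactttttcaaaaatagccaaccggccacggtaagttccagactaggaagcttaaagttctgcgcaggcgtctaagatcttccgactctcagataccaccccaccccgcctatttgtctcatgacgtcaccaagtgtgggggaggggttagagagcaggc
Cdkn2c, downstream start: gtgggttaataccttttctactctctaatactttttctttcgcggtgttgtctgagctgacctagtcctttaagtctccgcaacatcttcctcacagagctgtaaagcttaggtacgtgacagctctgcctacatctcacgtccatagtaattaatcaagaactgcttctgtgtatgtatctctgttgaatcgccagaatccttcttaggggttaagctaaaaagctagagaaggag
Cdkn2a, downstream start: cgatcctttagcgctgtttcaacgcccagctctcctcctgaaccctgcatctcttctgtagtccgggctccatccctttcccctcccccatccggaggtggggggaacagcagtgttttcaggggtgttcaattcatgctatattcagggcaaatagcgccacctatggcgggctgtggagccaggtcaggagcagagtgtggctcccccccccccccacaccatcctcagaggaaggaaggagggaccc
Cdkn2a, upstream start: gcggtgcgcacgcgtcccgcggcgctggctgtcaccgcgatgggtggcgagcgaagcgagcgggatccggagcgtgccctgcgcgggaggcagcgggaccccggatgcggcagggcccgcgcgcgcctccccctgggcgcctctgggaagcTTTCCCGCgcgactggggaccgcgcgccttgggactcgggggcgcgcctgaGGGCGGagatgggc
The Cdkn2b window and the downstream Cdkn2c and Cdkn2a windows held none of these words. The window of the upstream Cdkn2c start held no E2F word and 3 GC boxes, at 95, 51 and 40 bases before the start. The window of the upstream Cdkn2a start held TTTCCCGC at 99 bases and GC boxes at 48 and 14 bases before the start, the last of these within annotated exon and not shown. Across 32851 promoter windows of the same length, 1.53% held an E2F word and 32.7% a GC box, and the median GC content was 52.4%, beside 53.6% for Cdkn2b, 42.8% and 60.0% for the downstream windows of Cdkn2c and Cdkn2a and 77.2% and 78.4% for their upstream windows. A match describes letters and is not evidence of binding.

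Of the Cip/Kip inhibitors, only Cdkn1c passed the test. Cdkn1a, which encodes p21, a target of p53 and of many stress signals, lies at chr17:29090976-29100727 on the plus strand and shares 273 exon bases with AC167363.2. It was at 37.0, 15.8, 15.1 and 33.4 CPM at E12.5 and at 63.2, 42.2, 29.0 and 51.1 CPM at P0. Only NPD28 among the P0 litters fell within the E12.5 range, but Cdkn1a did not pass (log2 fold change 0.88, SE 0.36, edgeR adjusted p = 0.093). It passed without the filter on low counts (0.89, adjusted p = 0.035) and with NDP10.2 and NPD9.2 left out (1.55, adjusted p = 0.033), these being the highest E12.5 litters for Cdkn1a and those with most erythroid, muscle and liver transcripts.

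Cdkn1b, at chr6:134920401-134925513 on the plus strand, encodes p27, which accumulates in many cells that leave the cycle. It measured 46.5, 30.8, 36.9 and 41.3 CPM at E12.5 and 45.9, 39.2, 76.5 and 57.0 CPM at P0. Ranges overlapped, with NPD28 highest, and the means of 38.9 ± 6.64 CPM and 54.7 ± 16.3 CPM were not called different (log2 fold change 0.49, SE 0.26, edgeR adjusted p = 0.18).

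Cdkn1c, the remaining Cip/Kip gene, encodes p57 and is an imprinted gene expressed from the maternal copy. It was at 1262, 1378, 1108 and 1233 CPM at E12.5 and at 51.9, 57.8, 24.2 and 73.5 CPM at P0. The stages lay far apart and the mean fell 24.0-fold (log2 fold change -4.59, SE 0.38, edgeR adjusted p = 6.36e-05), which held in all 8 fits with a litter left out, at -4.84 to -4.34. Per length, Cdkn1a and Cdkn1b summed to 15.7 ± 4.60 CPM per kb at E12.5 and 25.1 ± 3.27 at P0, whereas with Cdkn1c the Cip/Kip sum was 627 ± 54.3 and 50.5 ± 10.8 CPM per kb. Summed over the family, the level of Cip/Kip inhibitor RNA was therefore 12.4-fold lower at P0, while Cdkn1a and Cdkn1b taken alone were 1.60-fold higher in the mean, with ranges that overlapped, though not when the longest transcript was the length.

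Rb1 encodes the retinoblastoma protein at chr14:73183673-73325822 on the minus strand, and 896 of its exon bases are shared with Rcbtb2 and Lpar6 on the plus strand. Its level was 26.4, 41.2, 67.9 and 40.6 CPM at E12.5 and 80.8, 95.8, 96.9 and 64.3 CPM at P0. The lowest P0 litter, NPD30, fell just below the highest E12.5 litter, NPD4, and the others were separate. The mean rose 1.91-fold, from 44.0 ± 17.3 to 84.4 ± 15.3 CPM (log2 fold change 0.94, SE 0.29, edgeR adjusted p = 0.036). The call was lost without NDP10.2 (0.71), NPD3 (0.86), NPD9.2 (0.86), NPD26 (0.97), NPD27 (0.88) or NPD28 (0.87), under upper quartile normalization (0.78, adjusted p = 0.064), which lowered the median log2 fold change of all genes by 0.15, and with NDP10.2 and NPD9.2 left out (0.59, adjusted p = 0.23).

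Of the pocket proteins related to Rb1, Rbl2, which encodes p130, the family member typical of resting cells, rose. Rbl2 was at 20.8, 27.7, 22.4 and 19.4 CPM at E12.5 and at 50.3, 45.1, 75.2 and 69.9 CPM at P0, without overlap (log2 fold change 1.41, SE 0.25, edgeR adjusted p = 0.0021), a call that held without any 1 litter. Rbl1, which encodes p107, had means of 33.9 ± 11.4 CPM and 35.8 ± 13.1 CPM (log2 fold change 0.08, SE 0.33, adjusted p = 0.89), and its sign changed to -0.09 under upper quartile normalization. E2f3, an activating E2F, fell from 33.9 ± 1.42 CPM to 16.9 ± 4.66 CPM (log2 fold change -1.004, SE 0.26, adjusted p = 0.014), a call lost with NDP10.2 and NPD9.2 left out together (-1.05, adjusted p = 0.060). E2f6, a repressive E2F, fell (log2 fold change -0.69, SE 0.22, adjusted p = 0.038), a call lost without NPD3, NPD4, NPD9.2, NPD27, NPD28 or NPD30, at -0.72 to -0.61. The other E2F genes did not pass, with log2 fold changes of 0.11 for E2f1, 1.03 for E2f2, 0.33 for E2f4, -0.71 for E2f5, -0.57 for E2f7 and 0.09 for E2f8. E2f5 passed without NPD9.2 (-0.91) or NPD30 (-0.90). The sign changed for E2f1 without NPD3, NPD4 or NPD27, for E2f8 without NDP10.2, NPD4 or NPD28, for Rbl1 without NDP10.2 or NPD28, and for E2f1 and E2f8 also under upper quartile normalization. E2f2 was at 92.4 CPM in NPD28 and at 19.0 to 29.1 CPM in the other P0 litters, and without NPD28 its log2 fold change was 0.29. Of 12 pocket protein and E2F genes, 1 passed higher and 2 lower, with a median log2 fold change of 0.05. Over all genes tested, 16.0% passed higher and 12.0% lower.

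**Figure D4:**
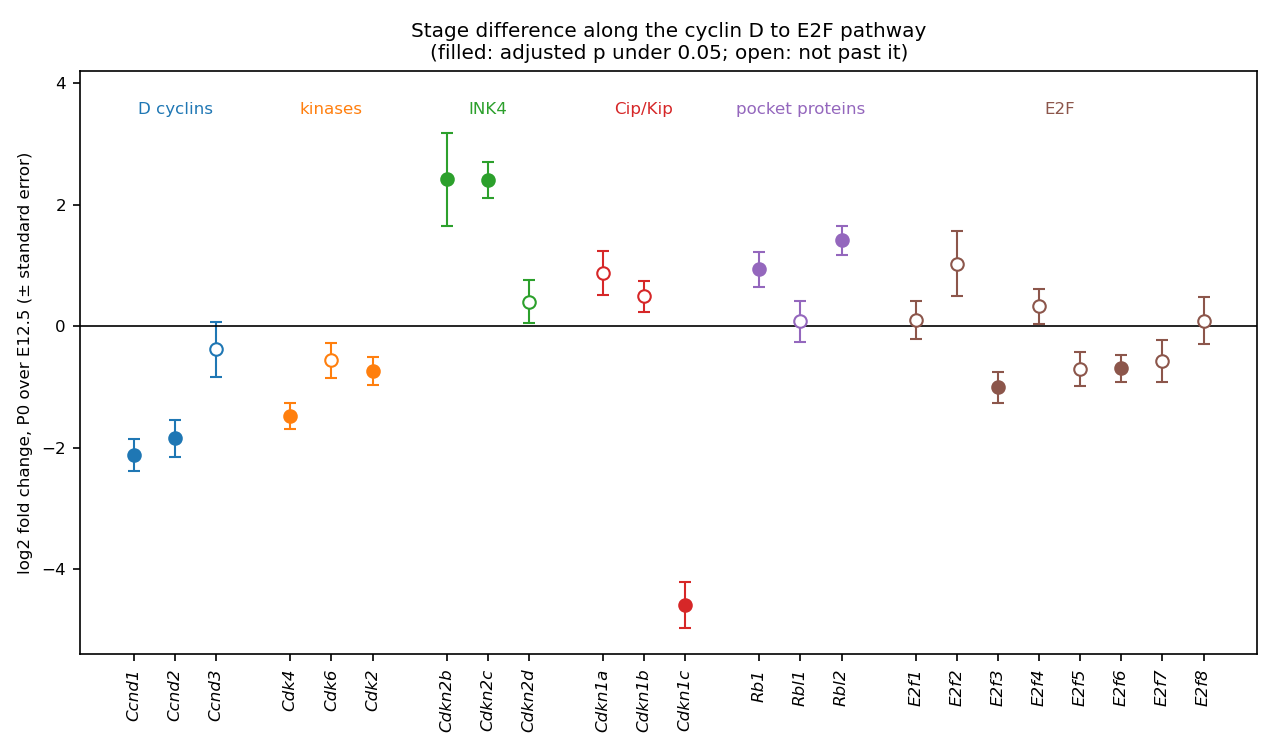
Log2 fold change of P0 over E12.5 (vertical axis, bars of 1 SE, n = 4 litters per stage) for the D cyclins, their kinases, the INK4 and Cip/Kip inhibitors, the pocket proteins and the E2F genes, with filled symbols where the edgeR adjusted p is under 0.05. Ccnd1, Ccnd2, Cdk4, Cdk2, Cdkn1c, E2f3 and E2f6 were called lower and Cdkn2b, Cdkn2c, Rb1 and Rbl2 higher. Cdkn2a is left out because it was not tested.

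Downstream, most E2F target genes of S phase did not pass, where 27.9% of all genes tested passed. Of 16 such genes, only Tyms, the thymidylate synthase gene, was called, with means of 45.9 ± 8.89 CPM and 20.2 ± 5.07 CPM (log2 fold change -1.18, SE 0.26, edgeR adjusted p = 0.0062), and the median was -0.15. Under DESeq2, under upper quartile normalization and without NDP10.2 the list had 2, 3 and 2 calls. Mki67, a marker of cycling cells, stood at 461 ± 85.3 CPM and 556 ± 291 CPM (log2 fold change 0.27, SE 0.37, adjusted p = 0.62), and Top2a, needed in mitosis, did not pass either (log2 fold change -0.26, adjusted p = 0.58). Mki67 was highest at P0 in NPD28, with 946 CPM, and lowest in NPD26, with 276 CPM, so the P0 litters spread around the E12.5 range of 349 to 547 CPM.

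Genes that act on the stability of these proteins were also read from a list. Of 10 genes for ubiquitin ligases of D cyclins, p27 and p21, 2 passed and both were lower at P0. Over all genes tested, 27.9% passed, with 12.0% lower. Cks1b, the cofactor of SKP2 in p27 turnover, fell (log2 fold change -0.89, SE 0.21, edgeR adjusted p = 0.0095). Dtl, which directs p21 to the CUL4 ligase, fell (log2 fold change -0.98, SE 0.32, adjusted p = 0.039), a call lost without NPD3, NPD9.2, NPD26 or NPD27, at -1.01 to -0.80. The median of the list was -0.32, and 1 gene was called without NPD3, NPD9.2 or NPD26.

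Of 18 genes of p53 and its targets, 16 were tested, 4 passed higher and none lower, with a median log2 fold change of 0.49. Over all genes tested, 27.9% passed, with 16.0% higher and 12.0% lower. Perp, a p53 target that also serves desmosomes, was at 38.3 ± 12.1 CPM and 315 ± 196 CPM (log2 fold change 3.04, SE 0.45, edgeR adjusted p = 0.0010), with its highest value, 594 CPM, in NPD30. Sesn1, a stress-responsive gene, was at 158, 184, 78.4 and 30.9 CPM in the P0 litters, the last of these within the E12.5 range of 26.3 to 38.8 CPM. Its log2 fold change was 1.78 (SE 0.47, adjusted p = 0.017), lost without NDP10.2 (1.72) or NPD9.2 (1.65). Btg2, an antiproliferative gene, rose (log2 fold change 1.34, SE 0.43, adjusted p = 0.041), a call lost without any 1 of 6 litters (NDP10.2, NPD3, NPD4, NPD9.2, NPD27 and NPD28), at 0.77 to 1.41. The remaining called gene, Ccng1, had means of 65.55 ± 18.1 CPM and 158.6 ± 7.3 CPM (log2 fold change 1.27, SE 0.24, edgeR adjusted p = 0.0032). Trp53 itself did not pass (-0.38, adjusted p = 0.21), and limma-voom called 2 genes of the list. Of 12 immediate early and stress genes, 11 were tested and 7 passed, all higher at P0, with a median of 3.15. The largest were Fosb (4.91), Fos (4.76) and Zfp36 (3.88), and the part of dissociation and sorting in these levels cannot be told apart from stage.

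Regulators of the Cdkn2a and Cdkn2b locus were read from a list of 7 Polycomb and demethylase genes. None passed in edgeR, where 27.9% of all genes tested passed. Of the 7 genes, 2 had an unadjusted p under 0.05 in edgeR, and DESeq2 and limma-voom called 2 and 1. In edgeR, 1 passed without NDP10.2 and 2 without NPD28. The log2 fold changes nearest to the threshold were those of Cbx7, at 1.62 (adjusted p = 0.073), and Ezh2, which encodes the H3K27 methyltransferase, at -0.71 (adjusted p = 0.075). Both genes were picked out after their values were seen.

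Within E12.5, the order of levels per length was Ccnd2 (52.2 CPM per kb), Ccnd1 (22.8), Cdkn2d (14.7), Ccnd3 (12.9), Cdkn1b (8.54), Rb1 (7.32), Cdkn1a (7.13), Cdkn2c (1.74), Cdkn2b (0.64) and Cdkn2a (0). The litters of Ccnd2 all lay above those of Ccnd1, those of Cdkn1a above those of Cdkn2c, and those of Cdkn2b above Cdkn2a, while all other neighbours in that order overlapped. At P0 the order was Cdkn2d (19.6), Ccnd2 (14.5), Rb1 (14.0), Cdkn1a (13.1), Cdkn1b (12.0), Ccnd3 (9.90), Cdkn2c (9.25), Ccnd1 (5.23), Cdkn2b (3.34) and Cdkn2a (0.13). Neighbours from Cdkn2d to Cdkn2c overlapped, as did Ccnd1 and Cdkn2b. With the longest transcript as the length, Ccnd3 moved to the second place at E12.5. At P0 the order then began with Ccnd3 (22.5), Cdkn1a (22.3), Cdkn2d (21.7) and Ccnd2 (21.5). Ranks therefore depend on which exons are counted.

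Genes whose levels followed those of Ccnd1 and Cdkn2b most closely across the 8 litters were found by Pearson's r of log2 CPM among 8303 genes. For Ccnd1 they were Mmp2, a matrix metalloprotease gene (r = 0.998), and the imprinted genes H19 (0.997) and Igf2 (0.994), and 355 genes had r over 0.9. For Cdkn2b they were the potassium channel gene Kcnd1 (r = 0.986), Epdr1 (0.964) and Smim14 (0.958), and 40 genes had r over 0.9. The 8 points fall into the 2 stages, so a high r mostly restates the difference between stages, and no test is attached. Counts of Cdkn2b were low at E12.5, and its call did not hold when litters were left out.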

How the data were processed

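RNA of 4 E12.5 and 4 P0 litters was sequenced by the authors as single-end reads, aligned to GRCm38.p3 and annotated with Gencode M4. The submitters' processing notes name CASAVA 1.8.2, STAR 2.4.0j and HTSeq. The deposited values are raw read counts per gene in 1 table per sample, and every value was checked to be a whole number. The strand setting of the counting is not given in the sources used here. The 5 tally rows of each table that name no gene were left out, and reads counted on genes were 22.6% to 34.8% of all reads tallied. Symbols were found for 42462 of 43346 identifiers, with Gencode M21, a later release on the same build, which also gave positions and lengths.

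Stages were compared by the quasi-likelihood F-test of edgeR 4.0.16 (R 4.3.3) after TMM normalization and filterByExpr (minimum count 10, minimum total 15), with robust estimates. Benjamini-Hochberg adjustment covered the 15467 genes that passed the filter, and the threshold for a call was 0.05. SE is the log2 fold change divided by the square root of F. CPM uses TMM library sizes, and log2 CPM a prior count of 2. Litters are separate biological samples. The method was tested on simulated data. Alternatives used DESeq2 1.42.0, limma 3.58.1 (voom), other normalizations and filters, estimates that were not robust, mitochondrial, hemoglobin and ribosomal RNA genes left out, downsampled counts, other lengths, and each litter left out. Leaving out NDP10.2 and NPD9.2 together was chosen after the data were seen, for their high share of ambiguous reads.

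The 10 genes and all lists were chosen with earlier results of these data known. Named beside them are Cdk4, Cdk6, Cdk2, Cdkn1c, Rbl1, Rbl2, E2f1 to E2f8 and, from each list, up to 3 called genes with the largest log2 fold change and a mean of at least 2 in log2 CPM. The genes most like Ccnd1 and Cdkn2b, the called D cyclin and the called inhibitor with the largest change among the 10 genes (Cdkn2b at 2.42 and Cdkn2c at 2.41 in log2), were sought among genes averaging at least 4 in log2 CPM. Other genes named (Ccna2, Ccnb1, Mki67, Top2a, Trp53, Ccng1, Cbx7 and Ezh2) fall outside this rule.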

Additional observations from a re-analysis of the deposited data

Results flagged for a closer look

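In 71 groups of 4 values screened for a single value far from the other 3, 4 stood apart by Dixon's criterion, and chance gives about 1 in 20. At E12.5, Cdkn2b was at 2.36 CPM in NDP10.2, against 0.25 to 0.59 CPM in the others, which corresponds to 10 counts against 1 to 3. Also at E12.5, Cdkn2d was at 43.4 CPM in NPD4, against 14.4 to 18.9 CPM. At P0, E2f2 was at 92.4 CPM in NPD28, against 19.0 to 29.1 CPM. In the same litter the share of Ccnd3 in the D-cyclin level per length was 48.5%, against 25.1% to 27.5%. NPD4 was the E12.5 litter with the most transcripts of Tubb3 and Elavl3, the neuronal genes of the neural tube list, and the lowest level of Pax6 from that list. NPD28 was the P0 litter with the most neutrophil transcripts. The part of other cells in these values was not tested.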

How the results depend on the processing

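No paired analysis applies, because each litter was collected at 1 stage only. The calls of Ccnd1, Ccnd2, Cdkn2c, Cdk4, Cdkn1c and Rbl2 held in the 8 fits without 1 litter and the 10 other alternatives. With 1 litter left out, 3 to 5 of the 10 genes were called, and the log2 fold changes ranged over 1.85 to 3.43 for Cdkn2b, 0.20 to 0.91 for Cdkn2d, 0.71 to 1.22 for Rb1, -0.034 to 0.30 for E2f1, -0.27 to 0.40 for E2f8 and -0.17 to 0.26 for Rbl1. Calls per list ranged over 1 to 3 for kinases and later cyclins, 1 to 2 for E2F targets, 1 to 3 for ubiquitin ligase genes and 0 to 2 for Polycomb genes. Downsampling to the smallest library took Cdkn2b to 2.33 (adjusted p = 0.051), and the filter of 10 counts in every sample removed it. Without the filter Cdkn1a passed at 0.89, and kinases and Polycomb genes had 1 call each. Upper quartile normalization lowered the median of all genes by 0.15, took Rb1 to 0.78 and out of the calls, turned E2f1 to -0.043, E2f8 to -0.082 and Rbl1 to -0.091, and gave 3 calls for E2F targets, 4 for ubiquitin ligase genes and 1 for Polycomb genes. DESeq2 gave 2 calls each for E2F targets and Polycomb genes, and limma-voom 2 for p53 targets and 1 for Polycomb genes. The filter of 10 counts in every sample gave 4 calls for immediate early genes, fewer genes being tested. Without NDP10.2 and NPD9.2, 2581 genes were called in all, against 4321. There Ccnd3 turned to 0.26 and Rbl1 to -0.054, Cdkn1a passed at 1.55, Rb1 did not at 0.59, and calls were 1 for kinases, 1 for pocket and E2F genes, 2 for E2F targets, 1 for ubiquitin ligase genes and 1 for Polycomb genes, with fewer samples in the fit. The cause of these changes was not tested. The longest transcript as length gave E12.5 shares of 21.1% for Ccnd1 and 20.8% for Ccnd3. Of 413 values of the other named genes under an alternative, 365 kept direction and side of the threshold, 34 lost the call, 2 gained it and 12 changed sign. The depth limits Cdkn2a and Cdkn2b, where 3 counts equal 0.337 to 0.675 CPM.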
